A study of Mus musculus with 4 samples.

Results

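Sox4, Sox11 and Sox12 are the 3 SoxC genes, a group within the SOX family of transcription factors. They were taken by symbol as 3 of the 55341 genes counted in each library, and all 3 were among the 16617 genes with enough counts to be tested. RNA-seq was performed on cerebellar tissue of mice at postnatal day 14 (P14) from 2 WT and 2 Kdm6b-cKO animals. WT mice were Kdm6b fl/fl, and Kdm6b-cKO mice were Atoh1-Cre; Kdm6b fl/fl littermates, so that both genotypes carried the floxed allele of the H3K27 demethylase gene Kdm6b and only the cKO mice carried Cre. Cre was driven by Atoh1, which is expressed in granule neuron precursors, whereas RNA came from whole cerebellum with all of its cell types. Each library was made from the tissue of an individual mouse, and the comparison addressed how loss of Kdm6b in these precursors altered gene expression while granule neurons matured.

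SOX proteins bind DNA through an HMG box related to that of SRY, and the SoxC proteins carry a strong activation domain at their C terminus. They are made mainly in progenitors leaving the cell cycle and in newborn neurons, where they switch on genes of the immature neuronal cytoskeleton and partly replace each other, and their levels fall as neurons mature. In the postnatal cerebellum newborn granule neurons arise in the external granule layer and then migrate inward, so SoxC transcripts are known there from cells that have not yet finished maturing.

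The libraries held between 8811849 and 9892363 counts in genes, and levels are given as CPM, the counts of a gene relative to the library total after scaling by the TMM method. Replicates differed beyond sampling noise, with a chi-square per degree of freedom of 3.51 for WT and 3.82 for cKO. Kdm6b measured 154 CPM in either WT library, and 127 and 119 CPM in the cKO libraries. The log2 fold change was −0.33 with SE 0.076 (adjusted p = 0.0162 in edgeR and 0.0377 in DESeq2). In edgeR the call was lost in each of the 4 fits on 3 libraries, with values from −0.37 to −0.28. The floxed region holds only exons of the catalytic domain, whereas the counts cover all exons of the gene. WT 1 stood apart from the other 3 libraries in sex-linked genes (Xist at 0.431 CPM against 1359 to 1599 CPM), so sex ran partly with genotype and only fits without WT 1 compared libraries of the same pattern. cKO 1 stood apart in choroid plexus markers, whose summed level was 685 CPM there and 35.5 to 42.1 CPM elsewhere.

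All 3 SoxC genes lack introns in the GENCODE M21 annotation of GRCm38, lie on the minus strand, and have far longer exons than coding parts. Sox4 (ENSMUSG00000076431.4) spans chr13:28948919-28953713, an exon of 4795 bp of which 1320 bp are coding. Sox11 (ENSMUSG00000063632.6) spans chr12:27334264-27342574, with 8311 bp of exon and 1185 bp of coding sequence. Sox12 (ENSMUSG00000051817.8) spans chr2:152393611-152398063, with 4453 bp of exon and 942 bp of coding sequence.

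The proximal promoters are shown because the 3 genes share a family but differ in base composition upstream of the start. Each sequence covers 230 bases, from 250 to 21 bases before the RefSeq start on GRCm38.p6, written 5′ to 3′ along the minus strand. Capitals mark CCAAT or its reverse complement ATTGG, a motif common in promoters that was chosen after the sequences were viewed. The windows are chr13:28953720-28953949 for Sox4, chr12:27342739-27342968 for Sox11 and chr2:152398067-152398296 for Sox12.
Sox4: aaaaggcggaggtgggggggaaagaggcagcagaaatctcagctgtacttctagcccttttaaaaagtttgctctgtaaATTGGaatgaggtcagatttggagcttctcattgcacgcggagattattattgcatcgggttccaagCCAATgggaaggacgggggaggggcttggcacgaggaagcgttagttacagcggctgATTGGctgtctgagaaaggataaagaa
Sox11: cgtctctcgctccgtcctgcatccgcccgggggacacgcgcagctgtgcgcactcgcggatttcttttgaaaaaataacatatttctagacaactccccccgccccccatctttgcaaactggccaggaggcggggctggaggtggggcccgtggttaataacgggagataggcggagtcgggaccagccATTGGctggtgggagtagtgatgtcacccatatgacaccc
Sox12: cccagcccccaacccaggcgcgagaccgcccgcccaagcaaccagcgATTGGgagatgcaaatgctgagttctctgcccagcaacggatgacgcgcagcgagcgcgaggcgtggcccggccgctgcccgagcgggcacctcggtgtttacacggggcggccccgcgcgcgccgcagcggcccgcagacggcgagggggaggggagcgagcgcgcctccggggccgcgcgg
The Sox4 window held 3 CCAAT matches, a number reached by 2.41% of 32817 RefSeq windows of this length, and the Sox11 and Sox12 windows held 1 each, where 32.2% of windows held at least 1. CpG dinucleotides numbered 8 for Sox4, 16 for Sox11 and 35 for Sox12, and 40.1%, 21.6% and 1.84% of windows held at least as many. GC content was 49.1%, 59.6% and 76.1% in the same order, against a median of 51.7% over all windows. The SOX-type motifs ACAAAG and ACAATG, searched on both strands, were not found in any of the 3 windows, whereas 15.4% and 10.1% of all windows held them.

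Sox11 rose most among the SoxC genes in Kdm6b-cKO cerebellum. It was counted 441 and 513 times in WT 1 and WT 2 and 942 and 1174 times in cKO 1 and cKO 2, which corresponds to 47.6 and 55.4 CPM against 94.95 and 132 CPM. The lower cKO library was at 1.71 times the higher WT library, so the groups did not overlap. The mean was 51.5 ± 5.53 CPM in WT and 113 ± 25.9 CPM in cKO (SD, n = 2 each), a log2 fold change of 1.13 (SE 0.12) and a fold of 2.19 with a 95% interval from 1.85 to 2.60. The adjusted p was 5.07e-06 in edgeR's quasi-likelihood test, rank 14 of the 16617 tested genes by p and rank 107 by log2 fold change.

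Sox4 was higher as well, by a smaller factor. Its counts were 704 and 906 in WT and 1115 and 1294 in cKO, or 75.9 and 97.8 CPM against 112 and 145 CPM. Both cKO libraries lay above both WT libraries, but the gap was narrow, with cKO 1 at 1.15 times WT 2, while the replicates of each group differed by 1.29 times. Means were 86.9 ± 15.5 CPM and 129 ± 23.0 CPM (SD, n = 2 each). The log2 fold change was 0.56 (SE 0.11), a fold of 1.48 with a 95% interval from 1.26 to 1.74, and the edgeR adjusted p was 0.00478.

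Sox12 did not pass the test. It was counted 465 and 555 times in WT and 568 and 696 times in cKO, with levels of 50.2 and 59.9 CPM against 57.3 and 78.0 CPM. The groups overlapped, since cKO 1 lay below WT 2. The log2 fold change was 0.29 (SE 0.12), a fold of 1.23 with a 95% interval from 1.03 to 1.46 before any correction for multiple testing, and the edgeR adjusted p was 0.217 (unadjusted p = 0.0248). The interval reaches from nearly no difference to about that of Sox4, so these libraries leave the size of a Sox12 difference wide.

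**Figure D1:**
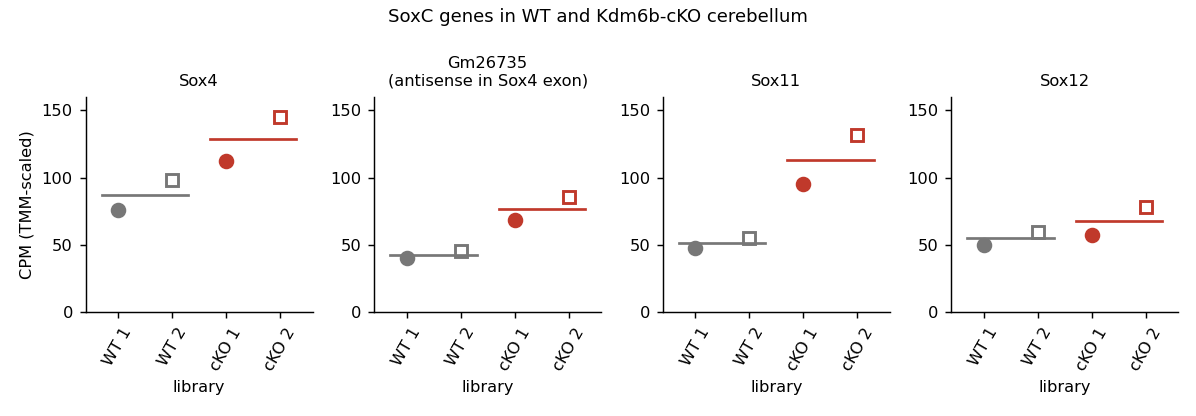
TMM-scaled CPM of Sox4, its antisense gene Gm26735, Sox11 and Sox12 in each library on a linear axis from 0, with grey for WT and red for cKO, circles for replicate 1, squares for replicate 2 and a bar at each group mean. Sox11 moves from 47.6 and 55.4 CPM in WT to 94.95 and 132 CPM in cKO, Sox4 and Gm26735 shift by less, and the Sox12 points of WT 2 and cKO 1 lie at nearly the same height.

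Of the 3 genes, 2 were thus called higher and 0 lower. Among all tested genes 1.87% were called higher and 2.17% lower, or 310 and 361 genes. The 2 called genes also had both cKO libraries above both WT libraries, as did 23.2% of all tested genes. The median log2 fold change was 0.56 over the 3 SoxC genes and 0.0036 over all tested genes. In RNA from whole tissue, more cells that contain these transcripts and more transcript per cell cannot be told apart.

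The order of the libraries was shared in part. WT 1 was the lowest and cKO 2 the highest library for each of the 3 genes, and within each genotype replicate 2 exceeded replicate 1, by 1.16 to 1.29 times in WT and 1.29 to 1.39 times in cKO. These factors between mice of the same genotype stand beside a fold between genotypes of 1.23 for Sox12, 1.48 for Sox4 and 2.19 for Sox11. A common factor that scales all 3 genes in a library drops out of ratios taken within that library, which need no scaling between libraries.

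Within-library ratios separated Sox11 from Sox12. The log2 ratio of Sox11 to Sox12 counts was −0.076 and −0.11 in WT and 0.73 and 0.75 in cKO, a difference of 0.84 between genotypes beside SDs of 0.026 and 0.017 between replicates. For Sox11 to Sox4 the ratio was −0.67 and −0.82 in WT and −0.24 and −0.14 in cKO, a difference of 0.56. For Sox4 to Sox12 it was 0.60 and 0.71 in WT and 0.97 and 0.89 in cKO, a difference of 0.28. In all 3 pairs the genotypes did not overlap, yet with 2 libraries each an exact permutation test (two-sided) cannot go below p = 0.333, which each pair reached (0.333 after Benjamini-Hochberg adjustment over the 3 pairs). With 1 library left out the difference ran from 0.82 to 0.86 for Sox11 to Sox12, from 0.48 to 0.63 for Sox11 to Sox4 and from 0.23 to 0.34 for Sox4 to Sox12.

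**Figure D2:**
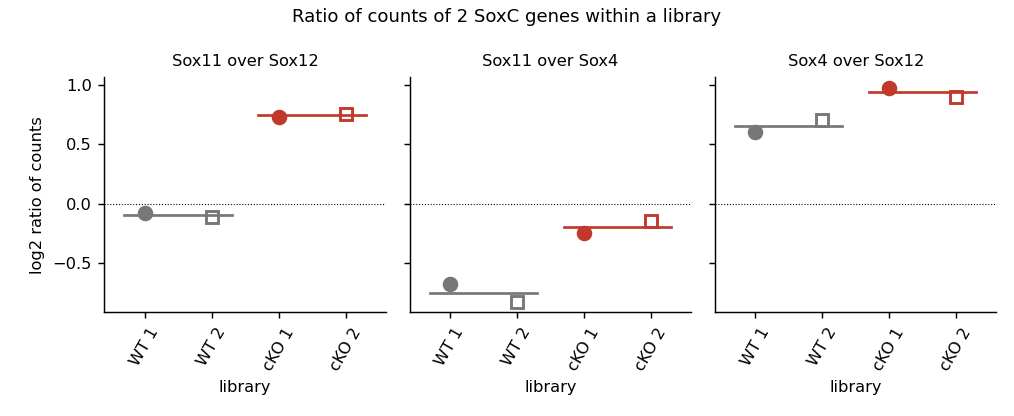
Log2 ratio of counts between each pair of SoxC genes within a library, with grey for WT and red for cKO, circles for replicate 1, squares for replicate 2 and a bar at each group mean. The Sox11 to Sox12 ratio is close to 0 in both WT libraries and at 0.73 and 0.75 in the cKO libraries, and no pair overlaps between genotypes.

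The share of Sox11 in all SoxC counts gives the same ratios as a proportion. It was 27.4% in WT 1 (Wilson 95% interval 25.3 to 29.6) and 26.0% in WT 2 (24.1 to 28.0), and it was 35.9% in cKO 1 (34.1 to 37.7) and 37.1% in cKO 2 (35.4 to 38.8). These intervals cover counting error only, and those of the 2 genotypes were apart.

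Levels between genes are compared per kb of annotated exon, because the Sox11 exon is much the longest. On this scale Sox4 was the most abundant in every library, at 15.8 and 20.4 CPM per kb in WT and 23.4 and 30.2 CPM per kb in cKO. Sox12 followed with 11.3 and 13.5 CPM per kb in WT and 12.9 and 17.5 in cKO. Sox11 was the least abundant with 5.72 and 6.67 CPM per kb in WT and 11.4 and 15.8 in cKO. In WT the ranges of neighbors in this order did not overlap, whereas in cKO the ranges of Sox12 and Sox11 did, although Sox12 exceeded Sox11 within each cKO library. Summed over the 3 genes, the level was 32.8 and 40.5 CPM per kb in WT and 47.7 and 63.6 CPM per kb in cKO.

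The value for Sox4 has a limit that the other 2 genes do not share. The antisense lincRNA gene Gm26735 (chr13:28943048-28951671, plus strand) has 2616 of its 2649 exon bp inside the Sox4 exon, where they cover 54.6% of it, and only 33 bp of its own. Gm26735 levels were 40.6 and 45.1 CPM in WT against 68.1 and 85.4 CPM in cKO, without overlap, and the log2 fold change of 0.84 (SE 0.11) had an adjusted p of 7.49e-05 in edgeR. Its counts were 0.534 and 0.461 times those of Sox4 in WT and 0.606 and 0.589 times in cKO, and per kb of exon the 2 genes stood at a ratio of 1.004. No source used here gives the strand setting for the counts. Reads from Sox4 and from Gm26735 therefore cannot be told apart on the shared stretch. The Gm26735 level and its call may stem from Sox4 reads, in whole or in part, which was not tested. With the counts of both genes summed (1080, 1324, 1791 and 2056 in WT 1, WT 2, cKO 1 and cKO 2) edgeR gave a log2 fold change of 0.66 with SE 0.10 and adjusted p = 4.71e-04.

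Other loci of this kind covered a wide range of such ratios. Over 150 noncoding genes with at least 90% of their exon bases inside exons of an opposite-strand coding gene, 149 had counts, and their median level per kb was 1.41 times that of the coding gene (quartiles 0.729 and 2.33). Sox11 and Sox12 overlapped no annotated gene. The nearest genes to the SoxC loci that were tested did not pass the threshold. They were Cdkal1 and A330102I10Rik, 238 and 60.7 kb from Sox4 (log2 fold changes −0.46 and 0.27), and Nrsn2 and Zcchc3, 17 and 13.9 kb from Sox12 (−0.38 and 0.054). Cmpk2 lay 854 kb from Sox11 (−0.37). The edgeR adjusted p of these genes ran from 0.193 to 0.904.

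The dependence on single libraries differed between the 3 genes. Sox11 kept a log2 fold change between 0.88 and 1.35 whichever library was left out. It was 1.03 without WT 1 and 1.25 without WT 2, and 1.35 without cKO 1 and 0.88 without cKO 2, where edgeR lost the call. The latter 2 fits called 0 genes at all in edgeR, although 2315 and 1718 genes had an unadjusted p under 0.05, and DESeq2 on the same libraries called 92 higher and 147 lower without cKO 1 and 34 higher and 55 lower without cKO 2. In DESeq2 the Sox11 call held in all 4 of these fits (adjusted p from 4.62e-10 to 0.00235).

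Sox4 ranged from 0.37 to 0.76 and was less stable. Without WT 1, which leaves libraries of the same sex pattern, its log2 fold change was 0.39 (edgeR adjusted p = 0.0446, DESeq2 adjusted p = 0.951), and without cKO 2 it was 0.37 (0.514 and 0.988). Without cKO 1 it was 0.74, lost in edgeR (adjusted p = 0.307) and called in DESeq2 (0.00398). The Sox4 call was also lost when no filter on low counts was applied (edgeR adjusted p = 0.0968), while DESeq2 on all libraries gave 0.00512. Sox12 ranged from 0.059 without cKO 2 to 0.50 without cKO 1, and passed only without WT 2 (0.43, edgeR adjusted p = 0.0435) and in no DESeq2 fit.

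**Figure D3:**
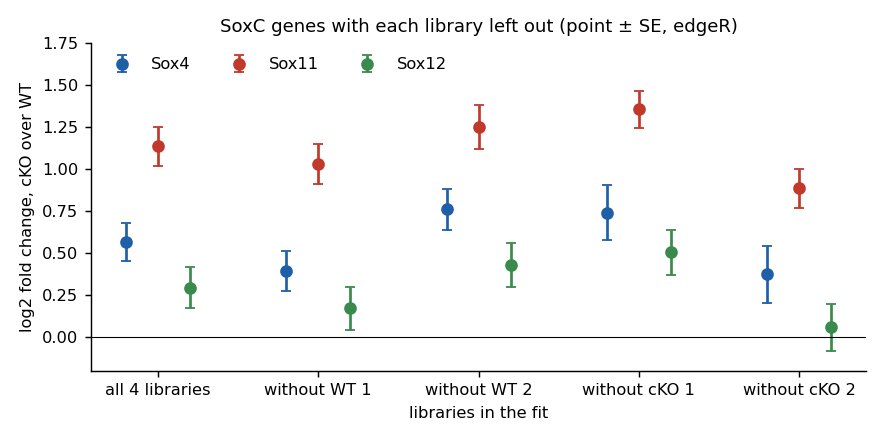
Log2 fold change of cKO over WT (± SE of the edgeR fit) for Sox4, Sox11 and Sox12 with all 4 libraries and with each library left out. Sox11 stays between 0.88 and 1.35, Sox4 between 0.37 and 0.76, and Sox12 reaches 0.059 without cKO 2.

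None of the other SOX genes tested was called, and their difference from the SoxC genes was not tested. Of the 17 in the files 13 were tested, and 0 were called by edgeR, limma-voom or DESeq2 (which gave an adjusted p for 7 of them), while 1 (Sox7) had an unadjusted p under 0.05 in edgeR. Their median log2 fold change was 0.047, and 7 of the 13 were above 0. Their summed level was 266 and 255 CPM in WT and 263 and 264 CPM in cKO, whereas that of the 3 SoxC genes was 174 and 213 CPM in WT and 265 and 354 CPM in cKO.

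By group, the SoxB1 genes of neural progenitors had log2 fold changes of −0.24 (Sox1), −0.14 (Sox2) and 0.29 (Sox3), and Sox21 of SoxB2 had 0.30. The SoxD genes had −0.059 (Sox5), 0.31 (Sox6) and −0.34 (Sox13). The SoxE genes of glia had 0.047 (Sox8), 0.10 (Sox9) and 0.11 (Sox10), the narrowest spread of any group. The SoxF genes of endothelium had 0.82 (Sox7, at 1.62 to 3.53 CPM with edgeR adjusted p = 0.292), −0.31 (Sox17) and −0.062 (Sox18). Sox7 and Sox6 (2 of 13) had both cKO libraries above both WT libraries, beside 23.2% of all tested genes. Sox1, Sox2, Sox13 and Sox17 (4 of 13) had both cKO libraries below both WT libraries. The share of all tested genes in that direction is not given here, so this count is a description only. The fitted difference of Sox7 was larger than that of Sox4 but rested on far fewer reads. Sox14, Sox15 and Sox30 stayed below the filter at 0.561 CPM or less, and Sry was at 0 in all libraries.

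**Figure D4:**
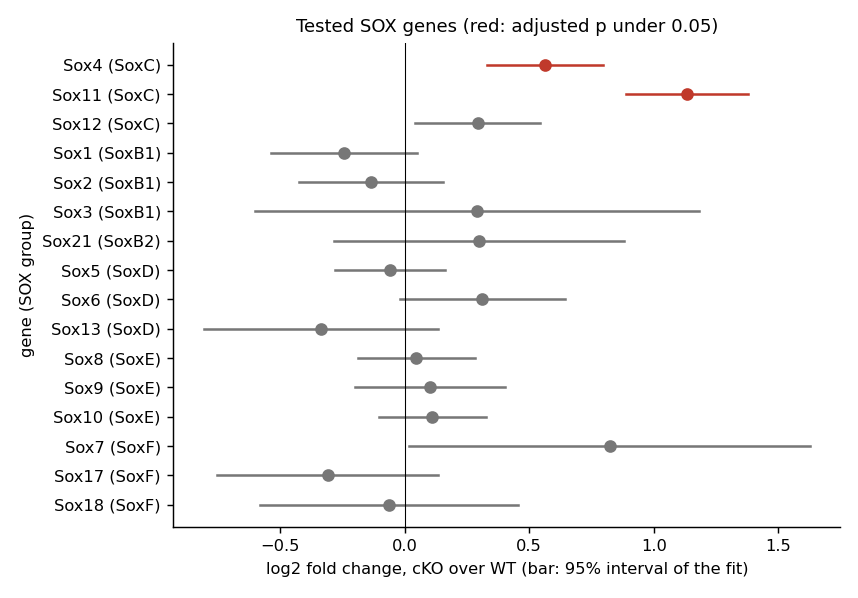
Log2 fold change of cKO over WT with the 95% interval of the edgeR fit for the 16 tested SOX genes, ordered by SOX group, with red for an adjusted p under 0.05. Sox4 and Sox11 are the red points, the interval of Sox12 begins just above 0, and the others lie between −0.34 and 0.82.

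A list of 18 genes that act with SoxC proteins or are known as their targets was set beside the members. None of the 6 partners and upstream regulators was called, among them the POU factors Pou3f2 and Pou3f3, which bind DNA beside SOX proteins (log2 fold changes 0.066 and 0.10), the proneural gene Neurog2 (0.97, at 0.647 to 2.24 CPM), Sdcbp, whose product syntenin binds SOX4 (−0.20), and the repressor gene Rest (−0.010). In limma-voom 0 of the 6 were called, as in DESeq2, which gave an adjusted p for 3 of them, and 1 (Sdcbp) had an unadjusted p under 0.05 in edgeR.

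Of the 12 targets, 3 were higher, 1 was lower and 8 did not pass, with a median log2 fold change of 0.12. Over all tested genes 1.87% were called higher and 2.17% lower. Dcx, which encodes the microtubule protein doublecortin of migrating neurons, measured 194 and 207 CPM in WT against 255 and 372 CPM in cKO, a log2 fold change of 0.64 with SE 0.11 (adjusted p = 0.00116 in edgeR). Insm1, a zinc-finger factor of newborn neurons, was at 26.3 and 43.0 CPM against 52.7 and 91.5 CPM (1.05, SE 0.19, edgeR adjusted p = 0.00252). Ezh2, the H3K27 methyltransferase of PRC2, was at 18.7 and 21.5 CPM against 28.0 and 35.0 CPM (0.65, SE 0.14, edgeR adjusted p = 0.0111).

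The WT and cKO libraries of Dcx, Insm1 and Ezh2 did not overlap, and in each gene WT 1 was the lowest and cKO 2 the highest, as for the SoxC genes. All 3 calls were lost in DESeq2 (adjusted p = 0.220, 0.387 and 0.0548 for Dcx, Insm1 and Ezh2) and without the filter on low counts (0.0621, 0.0948 and 0.0916 in edgeR). Eomes, a T-box factor that in the cerebellum also marks unipolar brush cells, moved the other way. It went from 50.05 and 57.0 CPM in WT to 34.8 and 21.7 CPM in cKO (−0.91, SE 0.15, edgeR adjusted p = 8.27e-04). Unlike those of Dcx, Insm1 and Ezh2, its call held in DESeq2 (adjusted p = 6.24e-04) and without the filter on low counts (0.0407 in edgeR). The best known direct targets Tubb3, a neuronal tubulin, and Tead2, a TEAD factor, had log2 fold changes of 0.24 and 0.71 and did not pass (edgeR adjusted p = 0.0879 and 0.105), although both cKO libraries lay above both WT libraries. With the replicate number as a block both passed (edgeR adjusted p = 0.0139 and 0.0375), but no source says that same-numbered libraries are paired. Tubb3 also passed with scaling by library size alone (0.0445).

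The profiles most like those of the members were found over the 4 libraries as the smallest distance between centered log2 CPM profiles among 10217 coding genes with a mean of at least 10 CPM. For Sox11 these were Cd24a (distance 0.11), a surface glycoprotein of newborn neurons, Vash2 (0.12), Barhl1 (0.23), a homeobox factor of granule cell precursors, Islr2 (0.24) and Draxin (0.24), an axon guidance protein. All 5 were called higher, with log2 fold changes from 0.91 to 1.22. For Sox4 the 4 closest were Msantd3 (0.040), Dpysl3 (0.056), a collapsin response mediator of growing axons, Pcdh11x (0.089) and Zfp711 (0.10), of which Dpysl3 and Zfp711 were called higher. For Sox12 they were Ephb2, Shc3, Ctnnbl1, Prc1 and H2-K1, at distances from 0.035 to 0.061, and none was called. Between members the distances were 0.30 for Sox4 and Sox12, 0.57 for Sox4 and Sox11 and 0.84 for Sox11 and Sox12. By closeness to Sox4 among the 10217 genes, Sox12 ranked 145 and Sox11 ranked 2211. For Sox11 the ranks were 63 for Sox4 and 360 for Sox12, and for Sox12 they were 772 for Sox4 and 9887 for Sox11. With 4 libraries these distances are descriptions only. Genes chosen as close to a member over these libraries have fold changes near its own by construction, so their calls add no evidence.

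Markers of immature granule lineage cells moved with Sox4 and Sox11. In a list of 20 newborn neuron markers that holds no SOX gene, 11 were higher, 0 were lower and 9 did not pass. Among all tested genes 1.87% were called higher. The list was written with earlier results of these data known, and it shares Dcx and Tubb3 with the SoxC targets. Its median log2 fold change was 0.43, and the 9 markers that did not pass ran from −0.078 to 0.34. Its summed level was 3699 and 3989 CPM in WT and 4516 and 5414 CPM in cKO, with the same order of libraries as Sox4 and Sox11. Among the called markers were the tubulin gene Tubb2b (log2 fold change 0.74), Cd24a (1.22) and the basic helix-loop-helix gene Nhlh1 (1.18). Of the granule progenitor list 5 of 10 tested genes were higher and 0 lower, among them the cyclin gene Ccnd2 (0.93) and Top2a (1.10), a gene of dividing cells. The other tested genes did not pass, with log2 fold changes of −0.59 for Gli2, −0.084 for Gli1 and −0.028 for Ptch1, genes of Sonic hedgehog signaling, 0.020 for Ccnd1 and 0.31 for Mycn. Gli1 and Gli2 had both cKO libraries below both WT libraries, a direction for which no share over all tested genes is given here. The list had a summed level of 399 and 436 CPM in WT and 473 and 591 CPM in cKO. Atoh1, whose regulatory sequence drove Cre, was at 0.431 to 2.02 CPM and was not tested.

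The members also differed relative to the summed level of the newborn neuron list, which gives most weight to its most abundant markers. Single markers of the list ran from −0.078 to 1.22. Cd24a (1.22) and Nhlh1 (1.18) were among those above Sox11 (1.13). Sox11 amounted to 1.29% and 1.39% of the summed level of the list in WT and to 2.10% and 2.43% in cKO, a log2 difference of 0.76. For Sox4 the difference relative to the list was 0.20, and for Sox12 it was −0.078. The summed level of the list itself was 0.37 higher in cKO on the log2 scale. The part of these marker levels in the values of Sox4 and Sox11 was not tested.

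Mature granule neuron markers went the opposite way to the SoxC genes, with 0 of 10 higher and 7 lower and a median of −0.40. Over all tested genes 1.87% were called higher and 2.17% lower. The summed level of these markers was 6749 and 6962 CPM in WT against 5881 and 5176 CPM in cKO. They included Gabra6, which encodes a subunit of the GABA-A receptor (−0.44), and Grm4 (−0.61), a glutamate receptor. In the 6 genes expressed along the whole granule lineage 1 was higher (Pax6, 0.29). Lists for other cell types, of 3 to 6 genes each, had at most 2 genes called in either direction. In the oligodendrocyte list 2 of 6 were lower, as were 2 of 6 in the list of Bergmann glia and astrocytes. Of the 6 oligodendrocyte precursor genes 2 were higher and 1 lower, and of the 6 Purkinje cell genes 1 each. The list of mural cells and fibroblasts had 1 of 6 higher. No gene was called in the lists of inhibitory interneurons, microglia, endothelium, ependyma and blood. In the choroid plexus list 2 of 5 tested genes were called higher. Ttr, its most abundant gene, measured 1.73 and 0.108 CPM in WT against 609 and 13.9 CPM in cKO, and the part of this tissue in the SoxC values was not tested.

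**Figure D5:**
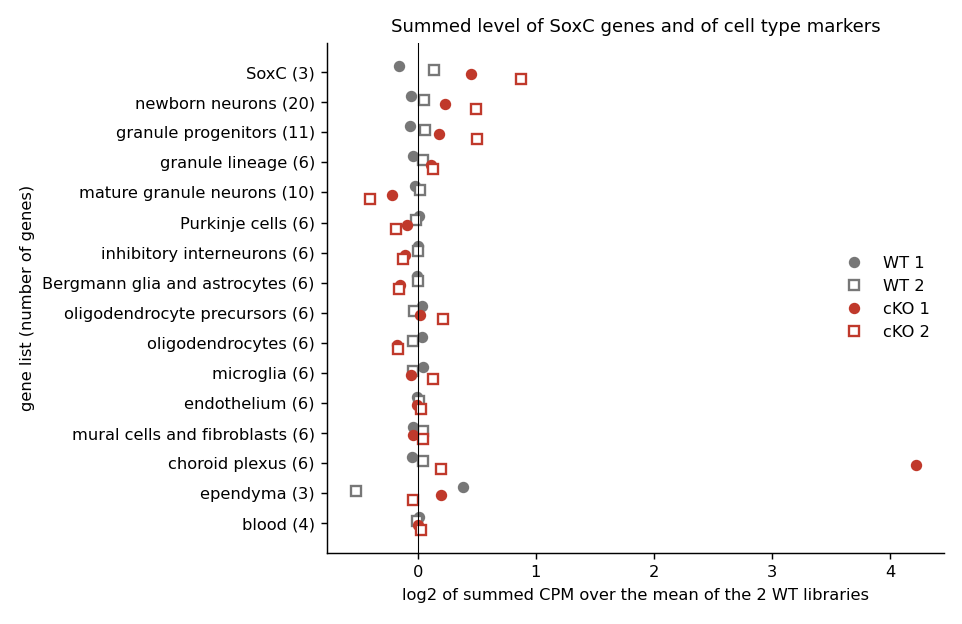
Summed CPM of the 3 SoxC genes and of each cell type marker list as log2 over the mean of the 2 WT libraries, with grey for WT and red for cKO, circles for replicate 1 and squares for replicate 2. SoxC, newborn neuron and granule progenitor sums are higher in cKO 1 and cKO 2 than in WT, mature granule neuron markers are lower, and the choroid plexus list departs most in cKO 1.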

How the data were processed

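The authors isolated RNA from P14 cerebellum, enriched poly(A) RNA and sequenced 150 bp pairs. Trimming was done with Trimmomatic 0.38, alignment to GRCm38 (mm10) with STAR 2.7.2b, and counting over exons with HTSeq, per the methods and the submitters' processing notes. Whether counting used strand is not given in the sources used here. Deposited were unnormalized whole-number counts, listed by gene symbol. Counts in genes were 39.0% to 40.5% of entries, and entries in no feature (48.8% to 49.6%) or otherwise naming no gene were left out.

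All 55341 symbols matched GENCODE M21. Genes were filtered with filterByExpr (minimum count 10), scaled by TMM and tested with edgeR 4.0.16 (quasi-likelihood, two-sided, no covariate) in R 4.3.3, with Benjamini-Hochberg adjustment over 16617 genes and a threshold of 0.05. SD covers 2 libraries, so small differences were below what this design can show, and the biological coefficient of variation was 7.33%. Scripts were tested on simulated data. Alternatives used other scalings and filters, DESeq2 1.42.0, limma-voom (limma 3.58.1), a replicate block, no X or Y genes, and each library left out. In fits with a lone library of a genotype, its spread was taken to equal that of the other genotype. The sum of Sox4 and Gm26735 and the DESeq2 fits without a library were chosen after seeing the data.

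The members and gene lists were chosen with earlier results of these data known, from general knowledge of cell types and SoxC targets. Genes were named by rule: the members, tested SOX genes, called partners and targets with Tubb3, Dcx, Tead2 and Ezh2, Kdm6b, the 5 most alike genes per member, neighbors, and markers that moved with a called member. Neurog2, Pou3f2, Pou3f3, Sdcbp and Rest were named outside it after their values were seen, and some genes within these lists and the rule are not reported here. Promoter sequences came from RefSeq (GRCm38.p6), where all 3 members matched. Groups and replicate numbers came from sample titles.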

Additional observations from a re-analysis of the deposited data

How the results depend on the processing

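The log2 fold changes of Sox4, Sox11 and Sox12 kept their sign in all alternatives, and their calls changed as follows. Sox4 lost its call without a filter on low counts (0.56), in edgeR without cKO 1 or cKO 2, and in DESeq2 without WT 1 (0.40) and without cKO 2 (0.38). Sox11 lost it in edgeR without cKO 1 or cKO 2, and Sox12 gained one in edgeR without WT 2. With a library left out in edgeR, values ran from 0.37 to 0.76 for Sox4, 0.88 to 1.35 for Sox11 and 0.059 to 0.50 for Sox12. The cause was not tested, beyond the loss of 1 of 4 libraries. With a replicate block the values were 0.57 for Sox4 (edgeR adjusted p = 3.66e-08), 1.13 for Sox11 (1.80e-17) and 0.29 for Sox12 (0.0541), and 549 genes were higher and 581 lower. Same-numbered libraries deviated together with a correlation of 0.043, and no source says that they are paired. Called genes numbered 71 higher and 106 lower without a filter, 141 and 183 in DESeq2, and 0 to 263 and 0 to 244 with a library left out. Scaling by library size alone gave 434 and 292, so 40.2% rather than 53.8% of calls were lower. Of the SoxC partners and targets 1 was called without a filter, 1 in DESeq2 and 0 to 4 with a library left out.

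Among genes that did not pass, signs turned for Rest (0.019 with library size alone) and Hes5 (−0.11 in limma-voom, −0.021 with the replicate block). With a library left out the ranges were −0.028 to 0.55 for Sox3, −0.029 to 0.72 for Sox21, −0.13 to 0.018 for Sox5, −0.013 to 0.11 for Sox8, −0.11 to 0.35 for Sox9, −0.0095 to 0.23 for Sox10, −0.41 to 0.21 for Sox18, −0.0020 to 0.14 for Pou3f2, −0.036 to 0.23 for Pou3f3, −0.16 to 0.14 for Rest, −0.011 to 0.14 for Neurod1, −0.020 to 0.064 for Nrcam and −0.97 to 0.63 for Hes5. At depths of 8811849 to 9892363 counts, genes near 2 CPM such as Neurog2 rest on few reads.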
